A study of Mus musculus with 8 samples.

Results

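The Hedgehog genes followed here are 9: the ligands Shh and Ihh, the receptor Ptch1, the signal transducer Smo, the ligand-binding inhibitor Hhip, the cytoplasmic inhibitor Sufu, and the zinc finger transcription factors Gli1, Gli2 and Gli3. They were taken by gene symbol, through the mouse gene number of each row, from tables of 38920 rows. All 9 were found and all 9 were among the 27401 rows tested. RNA came from sorted gastric epithelial cells of C57BL/6 mice. One group was fed a high fat diet (HFD; libraries 22, 23, 26 and 27), and the other was the control (libraries 15-17-18, 16, 19 and 20, titled ND). No genetic change is named for either group, and the sources used here give no age, time on diet or sorting marker. The labels do not say whether a library is 1 mouse, and the name 15-17-18 may stand for a pool, so p-values measure the spread between libraries, which may be technical.

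Hedgehog ligands are secreted proteins that are processed and lipid-modified before release. In a cell without ligand, Ptch1 keeps Smo inactive, and Sufu holds the Gli proteins in the cytoplasm, where Gli3 and Gli2 can be cut into repressors. Ligand bound to Ptch1 frees Smo, which acts through the primary cilium, and full-length Gli proteins then turn on targets that include Gli1, Ptch1 and Hhip. Ptch1 and Hhip both bind ligand and so limit the signal that induces them. In the adult stomach Shh is known from acid-secreting parietal cells and Ihh from surface pit cells, while the responding cells lie largely in the mesenchyme under the epithelium.

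None of the 9 genes differed between HFD and control libraries beyond the spread between libraries. The count called at a limma adjusted p under 0.05 was 0 of 9, against 3 of 27401 rows tested, which is 0.0109%. At an unadjusted p under 0.05 the count was also 0 of 9, against 10.5% of all rows. The 4 HFD libraries lay on 1 side of the 4 control libraries for 0 of 9 genes, against 7.84% of all rows. The differences were positive for 6 and negative for 3, with a median of 0.03, beside 0.12 over all rows, of which 59.9% were positive. The genes fell into a steady and a variable set: Ihh, Ptch1, Smo and Sufu varied little among all 8 libraries, Shh was variable in the control libraries, and Hhip and the 3 Gli genes varied widely. Levels are log2(scaled value + 1), where each library was scaled by the median, over rows, of its ratio to the mean of all libraries, and differences are HFD minus control on that scale.

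**Figure D1:**
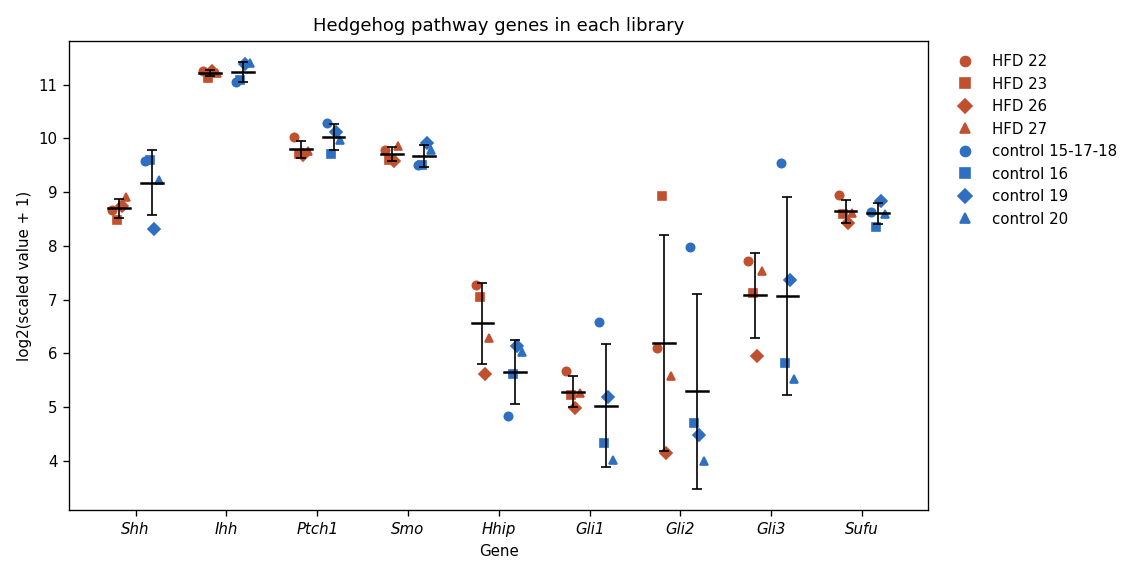
Level of each gene in each library, as log2(scaled value + 1); points are libraries, long bars are group means and whiskers are SD, with HFD (orange) left of control (blue) for each gene. Ihh sits near 11.2 in all 8 libraries, while Gli2 runs over 4.93 log2 units across both groups.

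The promoters of Ihh, Ptch1 and Hhip are shown because Ihh was the most abundant of the 9 genes per length and Ptch1 and Hhip are textbook targets of the Gli proteins. Each window holds 300 bases, 250 before and 50 after the RefSeq start on GRCm38.p6 (the assembly of mm10), on the minus strand. The Ihh window is chr1:74951623-74951922, the Ptch1 window chr13:63565686-63565985, which lies inside the span of the gene, and the Hhip window chr8:80057959-80058258. Capitals mark the letters GGGTGG or their reverse complement.
Ihh promoter: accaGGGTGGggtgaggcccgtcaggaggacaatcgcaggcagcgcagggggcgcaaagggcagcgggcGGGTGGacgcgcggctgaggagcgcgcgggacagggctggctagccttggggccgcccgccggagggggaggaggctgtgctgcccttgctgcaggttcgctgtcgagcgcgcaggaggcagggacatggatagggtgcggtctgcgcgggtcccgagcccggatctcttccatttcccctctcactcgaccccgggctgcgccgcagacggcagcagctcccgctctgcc
Ptch1 promoter: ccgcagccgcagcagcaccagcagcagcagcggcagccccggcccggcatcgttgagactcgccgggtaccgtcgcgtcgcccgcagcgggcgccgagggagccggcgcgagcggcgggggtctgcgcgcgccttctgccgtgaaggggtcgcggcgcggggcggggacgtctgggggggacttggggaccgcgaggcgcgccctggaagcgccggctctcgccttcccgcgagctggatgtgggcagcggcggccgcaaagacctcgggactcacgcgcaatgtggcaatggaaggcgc
Hhip promoter: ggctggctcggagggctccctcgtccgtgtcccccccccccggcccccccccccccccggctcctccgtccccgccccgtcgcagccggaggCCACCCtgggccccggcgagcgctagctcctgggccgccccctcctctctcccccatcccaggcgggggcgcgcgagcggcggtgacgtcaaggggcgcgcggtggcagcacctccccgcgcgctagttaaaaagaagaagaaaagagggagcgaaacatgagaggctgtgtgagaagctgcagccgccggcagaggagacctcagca
These windows are rich in G and C, at 72.7% for Ihh, 76.3% for Ptch1 and 73.7% for Hhip, against a median of 52.7% over 32851 RefSeq windows. They hold 30, 47 and 30 CpG pairs for Ihh, Ptch1 and Hhip, against a median of 7. The letters TGGGTGGTC, the core of the GLI binding motif, were searched on both strands. They were in 0 of the 7 member windows available, and in 0.253% of all windows. Shh and Gli1 had no window available and were not searched. The shorter GGGTGG, which lies within those 9 letters, was in 5 of 7 (Ihh, Gli2, Smo, Hhip and Gli3) and in 31.5% of all windows. That share over all windows was not matched for G and C content. A match describes the letters only, and no binding was measured.

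Shh (chromosome 5, 28456840 to 28467101, mm10) stood at 8.68, 8.49, 8.74 and 8.92 in HFD 22, 23, 26 and 27, against 9.58, 9.60, 8.32 and 9.23 in control 15-17-18, 16, 19 and 20. In 3 of the 4 control libraries Shh lay above every HFD library, and control 19 lay below all of them. Shh averaged 8.71 ± 0.18 in HFD and 9.18 ± 0.60 in control (SD, n = 4 per group). The log2 difference was -0.48 ± 0.27 (SE; 95% interval -1.08 to 0.13; limma adjusted p = 0.56; exact two-sided permutation p = 0.20). Without control 19 it became -0.76 ± 0.16 (SE; limma adjusted p = 0.16), the smallest adjusted p of any of the 9 genes under any of the 17 settings run, and still no call. Control 19 was also the shallowest library, where the Shh value is worth about 95.5 reads against about 194 to 1025 in the other controls. As deposited, the Shh difference had the other sign, at 0.38 ± 0.74 (SE; limma adjusted p = 0.72). In a bulk sample of this kind, fewer cells of a type and less RNA per cell cannot be told apart. Exons of Shh share bases with 9530036O11Rik and Gm26894 on the other strand, and the sources used here do not say whether counting used strand.

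Ihh (chromosome 1, 74945315 to 74951672) was the steadiest of the 9 genes. It stood at 11.25, 11.13, 11.25 and 11.21 in HFD 22, 23, 26 and 27, against 11.06, 11.09, 11.39 and 11.41 in control 15-17-18, 16, 19 and 20. All 4 HFD libraries lay inside the control range. The means were 11.21 ± 0.06 in HFD and 11.24 ± 0.19 in control (SD, n = 4 per group). The difference was -0.03 ± 0.11 (SE; limma adjusted p = 0.94), with a 95% interval of -0.28 to 0.23, so a change of more than 0.28 in either direction lies outside that interval on this scale. The interval depends on the scaling: as deposited it ran from -0.62 to 2.28 around 0.83.

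The balance between the ligands was read as the log2 ratio of Shh to Ihh within a library, which no scaling between libraries changes. The ratio was -2.58, -2.65, -2.51 and -2.30 in HFD 22, 23, 26 and 27, against -1.48, -1.49, -3.07 and -2.19 in control 15-17-18, 16, 19 and 20. HFD libraries were closely grouped, with an SD of 0.15, and fell between the extremes of the control libraries, whose SD was 0.75. The mean ratio was 0.45 lower in HFD on the log2 scale (difference -0.45; exact two-sided permutation p = 0.31, adjusted p = 0.46 over the 5 ratios computed). This ratio is per row and not per length.

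Ptch1 (chromosome 13, 63508328 to 63573460), the receptor and a target of the pathway, stood at 10.04, 9.72, 9.70 and 9.76 in HFD 22, 23, 26 and 27, against 10.30, 9.72, 10.12 and 9.97 in control 15-17-18, 16, 19 and 20. Control 16 was level with 3 of the HFD libraries, and HFD 22 lay among the other controls. The group means were 9.80 ± 0.16 in HFD and 10.02 ± 0.25 in control (SD, n = 4 per group). The difference was -0.22 ± 0.15 (SE; 95% interval -0.55 to 0.11; limma adjusted p = 0.61), and it was 0.64 as deposited (limma adjusted p = 0.57).

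Smo (chromosome 6, 29735497 to 29761366), the membrane protein that Ptch1 restrains, stood at 9.78, 9.60, 9.59 and 9.87 in HFD 22, 23, 26 and 27, against 9.51, 9.52, 9.92 and 9.78 in control 15-17-18, 16, 19 and 20. Again every HFD library lay within the control range. Smo averaged 9.71 ± 0.14 in HFD and 9.68 ± 0.20 in control (SD, n = 4 per group), a difference of 0.03 ± 0.14 (SE; 95% interval -0.28 to 0.33; limma adjusted p = 0.95).

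Sufu (chromosome 19, 46396896 to 46488804), which binds and holds Gli proteins, stood at 8.95, 8.59, 8.43 and 8.61 in HFD 22, 23, 26 and 27, against 8.63, 8.36, 8.84 and 8.59 in control 15-17-18, 16, 19 and 20. HFD 22 lay above all controls, and the other 3 HFD libraries lay inside the control range. Sufu averaged 8.65 ± 0.22 in HFD and 8.61 ± 0.20 in control (SD, n = 4 per group), a difference of 0.04 ± 0.16 (SE; 95% interval -0.33 to 0.41; limma adjusted p = 0.94). The log2 ratio of Sufu to Smo within a library was likewise close in both groups, at -1.06 ± 0.19 in HFD and -1.08 ± 0.14 in control (SD, n = 4 per group; exact permutation p = 0.91, adjusted p = 0.91).

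Hhip (chromosome 8, 79965850 to 80058060), the membrane decoy that binds Hedgehog ligand, had one of the largest differences in mean level among the 9 genes. It stood at 7.28, 7.06, 5.62 and 6.28 in HFD 22, 23, 26 and 27, against 4.84, 5.63, 6.14 and 6.02 in control 15-17-18, 16, 19 and 20. HFD 22, 23 and 27 lay above all controls, and HFD 26 lay below 3 of them. Hhip averaged 6.56 ± 0.76 in HFD and 5.66 ± 0.59 in control (SD, n = 4 per group). The difference was 0.90 ± 0.46 (SE; 95% interval -0.12 to 1.92; limma adjusted p = 0.52; exact two-sided permutation p = 0.14). It was 1.70 as deposited (limma adjusted p = 0.50) and 0.63 without control 15-17-18, where the Hhip value is worth about 7 reads. Hhip shares 175 exon bases with Gm27820 on the other strand.

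The ratio of Hhip to Ptch1, both inhibitory targets of the pathway, pointed the same way without any scaling. Its log2 was -2.77, -2.67, -4.11 and -3.50 in HFD 22, 23, 26 and 27, against -5.51, -4.12, -3.99 and -3.96 in control 15-17-18, 16, 19 and 20. The difference of 1.14 did not separate the groups (exact two-sided permutation p = 0.086, adjusted p = 0.43), and HFD 26 lay among the controls. Beside Hhip, the score of smooth muscle markers lay higher in all 4 HFD than in all 4 control libraries: all 9 markers had a positive difference, with a mean log2 level of 8.46 ± 0.28 in HFD and 6.57 ± 0.86 in control (SD, n = 4 per group; exact permutation p = 0.0286, the smallest that 70 divisions allow, adjusted p = 0.12 over 13 marker lists). Their summed level ran from 11.81 to 12.48 in HFD and from 9.43 to 11.24 in control, and Lmod1 was at 0 in 1 library. Fibroblast markers were positive for 9 of 12, at 8.27 ± 0.40 in HFD and 7.77 ± 0.70 in control (SD, n = 4 per group; exact permutation p = 0.23, adjusted p = 0.42). Their summed level ran from 12.37 to 13.22 in HFD and from 11.81 to 13.47 in control, with Lum at 0 in 1 library. The part of these cells in the Hhip value was not tested.

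**Figure D2:**
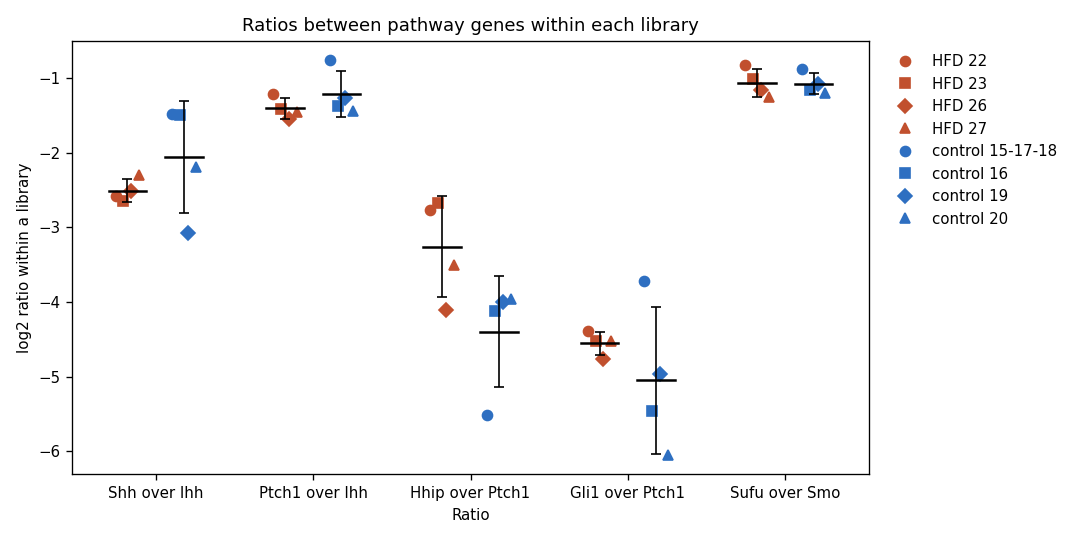
Log2 ratios between pairs of genes within each library; points are libraries, bars are group means and whiskers SD, with HFD left of control. For Hhip over Ptch1, HFD 22, 23 and 27 lie above the controls and HFD 26 lies at -4.11 among them.

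Gli1 (chromosome 10, 127329882 to 127341579), an activator whose transcript is widely used as a readout of Hedgehog signalling, was low in all libraries. It stood at 5.67, 5.23, 4.98 and 5.27 in HFD 22, 23, 26 and 27, against 6.59, 4.33, 5.20 and 4.01 in control 15-17-18, 16, 19 and 20. Control 15-17-18 was the highest of the 8 libraries and control 20 the lowest, so the HFD libraries lay inside the control range. Gli1 averaged 5.29 ± 0.29 in HFD and 5.03 ± 1.15 in control (SD, n = 4 per group). The difference was 0.26 ± 0.59 (SE; 95% interval -1.06 to 1.58; limma adjusted p = 0.89).

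Gli1 was the 1 gene of the 9 whose groups did not overlap on the deposited scale, against 7.93% of all rows there. Its deposited log2 values were 5.72, 5.48, 5.19 and 5.43 in HFD 22, 23, 26 and 27, against 4.06, 4.71, 4.59 and 3.92 in control 15-17-18, 16, 19 and 20. The deposited difference was 1.09 ± 0.89 (SE; limma adjusted p = 0.50), close to the median of 0.90 over all rows, and on that scale 0.0584% of rows were called. The scaling factor of control 15-17-18, 0.176, was the smallest of the 8, and dividing by it took Gli1 there from the third to the first place among the controls. Control 19 also lay inside the HFD range after scaling. In control 15-17-18 its top 20 rows held 85.7% of the total. With 1 library left out the scaled difference of Gli1 ran from -0.084, without control 20, to 0.77, without control 15-17-18, and with control 15-17-18 and 19 both left out it was 1.12, with 0 of the 9 genes called in any of these cases. The Gli1 values are worth about 37.9 to 50.9 reads in HFD and about 10.7 to 25.96 in control libraries. Gli1 shares exon bases with Arhgap9 and Gm47200 on the other strand.

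Gli2 (chromosome 1, 118834061 to 119054405), which acts mainly as an activator, was the most variable of the 9 genes. It stood at 6.10, 8.94, 4.15 and 5.59 in HFD 22, 23, 26 and 27, against 7.99, 4.71, 4.49 and 4.004 in control 15-17-18, 16, 19 and 20. Each group had 1 library well above its others, HFD 23 and control 15-17-18, which stood 3.35 and 3.50 above the median of the other libraries of their groups. Gli2 averaged 6.19 ± 2.01 in HFD and 5.30 ± 1.82 in control (SD, n = 4 per group), a difference of 0.90 ± 1.15 (SE; 95% interval -1.71 to 3.50; limma adjusted p = 0.79). Without HFD 23 the difference was -0.02, and without control 15-17-18 it was 1.79. The Gli2 value of HFD 23 is worth about 506 reads, against about 25.0 to 68.9 in the other HFD libraries. HFD 23 was also the library least like the others, with rank correlations of 0.817 to 0.887 with them over all rows.

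Gli3 (chromosome 13, 15463723 to 15730026), the main repressor of the family in its cut form, stood at 7.72, 7.13, 5.96 and 7.54 in HFD 22, 23, 26 and 27, against 9.54, 5.83, 7.37 and 5.52 in control 15-17-18, 16, 19 and 20. Control 15-17-18 was again highest, at 3.71 above the median of its group's other libraries, and the HFD values lay inside the control range. Gli3 averaged 7.09 ± 0.79 in HFD and 7.06 ± 1.84 in control (SD, n = 4 per group). The difference was 0.02 ± 0.86 (SE; 95% interval -1.95 to 1.99; limma adjusted p = 0.996). With 1 library left out it ran from -0.49, without control 20, to 0.85, without control 15-17-18. It was -0.21 after quantile normalization, and 1.41 without control 15-17-18 and 19 (limma adjusted p = 0.39).

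Gli2 and Gli3 are long genes, with spans of 220345 and 266304 bases. Over the 963 protein-coding genes with spans above 200 kb, control 15-17-18 lay a median of 0.62 above its group's other libraries and control 19 lay 0.36 above, while control 16 and control 20 lay 0.19 and 0.63 below (medians of -0.19 and -0.63). The controls ran in that order for Gli3, and also for Gli1, whose span is only 11698 bases, but not for Gli2, where control 16 lay above control 19. For the 5360 genes with spans under 10 kb, control 15-17-18 lay at -0.25 and control 19 at 0.29. In HFD the medians for long genes were 0.13, 0.11, -0.34 and 0.03 in HFD 22, 23, 26 and 27. HFD 26, lowest of its group for Gli2 and Gli3, was also lowest there, and it was lowest for the short gene Gli1 too. The value of 3.35 for Gli2 in HFD 23 stood far from the 0.11 of long genes in that library. The part of gene span in the Gli values was not tested.

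**Figure D3:**
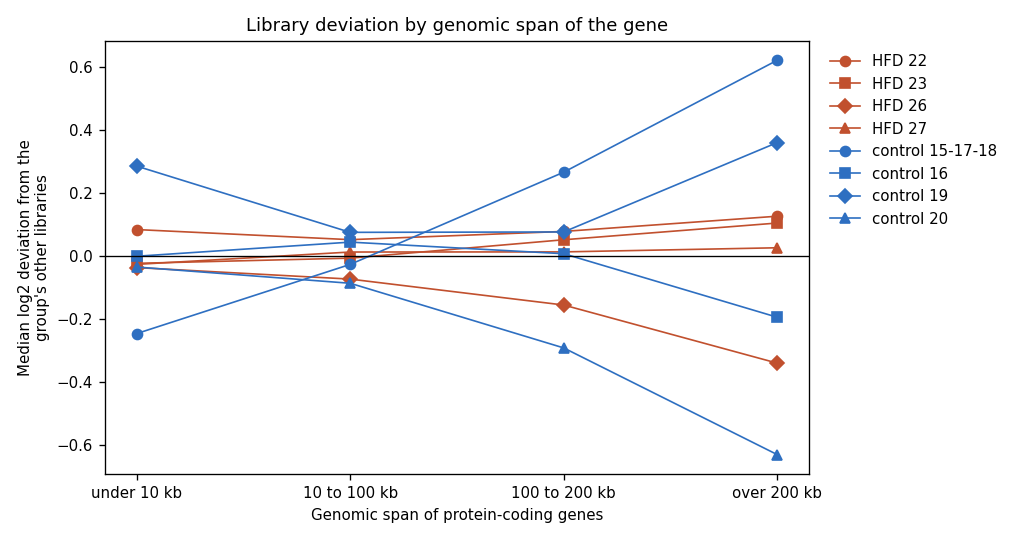
Median log2 deviation of each library from the other libraries of its group, for protein-coding genes in 4 classes of genomic span; lines join the classes of 1 library. Control 15-17-18 runs from -0.25 for genes under 10 kb to 0.62 for genes over 200 kb.

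Across the 9 genes, the intervals show what these libraries could resolve. On the scaled values, the 95% intervals of Ihh, Smo and Sufu reached no farther than 0.41 from 0, and that of Ptch1 reached -0.55. The scaled intervals of Gli1, Gli2 and Gli3 reached 1.58, 3.50 and 1.99. The narrow intervals depend on the scaling. On the deposited scale they ran from -0.62 to 2.28 for Ihh and from -0.57 to 2.34 for Smo. Those of Sufu and Ptch1 ran from -0.57 to 2.35 and from -0.81 to 2.09 there. As deposited, the intervals of Hhip (0.11 to 3.29) and Gli2 (0.10 to 3.38) lay above 0, on a scale where the median row stood at 0.90, and neither was called (limma adjusted p = 0.50 each). A p that misses the threshold for these genes does not show that their levels were equal.

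**Figure D4:**
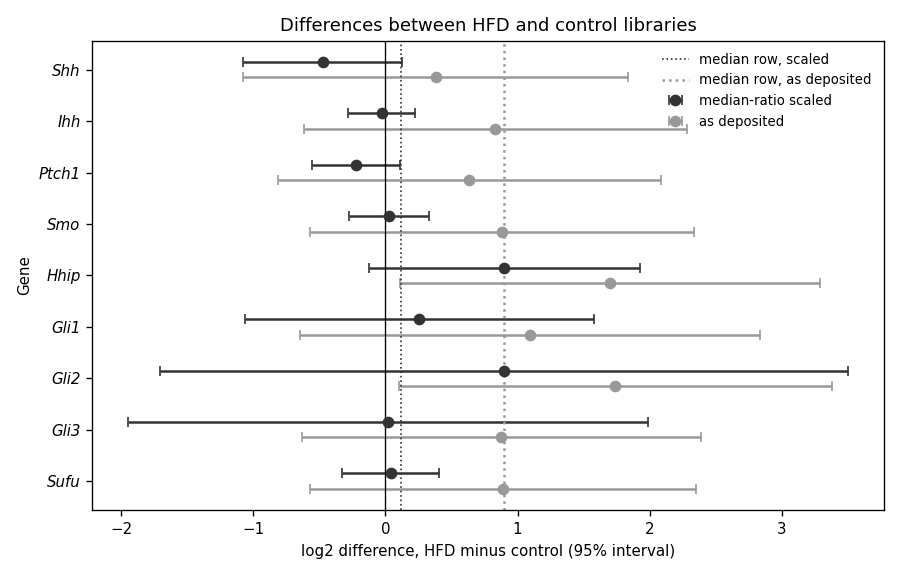
Log2 difference of each gene, HFD minus control, with 95% intervals, after median-ratio scaling and as deposited; dotted lines mark the median row on each scale, at 0.12 and 0.90. The 9 differences lie between 0.38 and 1.74 as deposited, and between -0.48 and 0.90 after scaling.

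Levels can be compared between genes only per length, because the deposited values grow with exon length. Among detected protein-coding genes, the median log2 value was 7.70 in the 3920 with the shortest total exon length and 9.28 in the 3916 with the longest. As log2 of the scaled value per kb of merged exons, the mean over the 8 libraries was 9.92 for Ihh, 7.77 for Smo, 7.43 for Shh, 6.95 for Ptch1 and 5.88 for Sufu, and then 4.002 for Gli3, 3.09 for Gli1, 2.97 for Gli2 and 2.90 for Hhip. Ihh lay above Smo in 8 of 8 libraries, and their ranges, 9.75 to 10.11 for Ihh and 7.59 to 7.998 for Smo, did not overlap. Ptch1 lay above Sufu in 8 of 8 libraries, also without overlap. All other neighbours in the order overlapped in range: Smo with Shh, Shh with Ptch1, Sufu with Gli3, and Gli3, Gli1, Gli2 and Hhip in turn. Smo and Ptch1, which are not neighbours, did not overlap, with Ptch1 at 6.73 to 7.33. Ihh therefore exceeded Shh per length in these sorted cells, with 9.91 and 7.19 in HFD and 9.93 and 7.67 in control libraries.

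**Figure D5:**
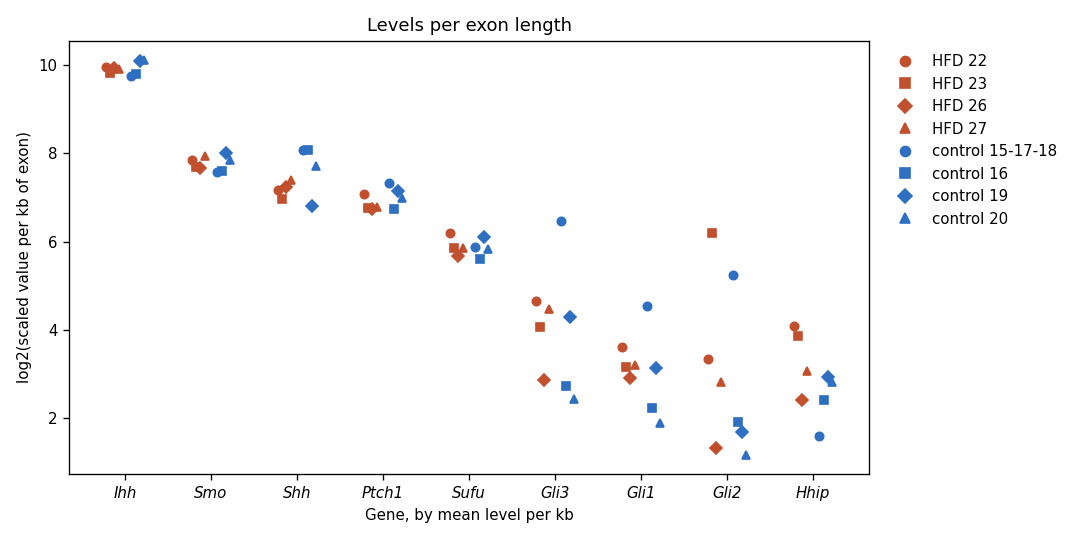
Log2 scaled value per kb of merged exon for each gene, ordered by its mean over 8 libraries. Points are libraries, with HFD left of control. Ihh lies above all others at 9.92, and the 3 Gli genes and Hhip lie between 2.90 and 4.002 on average.

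Markers of the gastric gland epithelium were high in all libraries, and markers of other tissues were also present. Epithelial markers such as Epcam, Krt8 and Tff1 had a mean log2 level of 15.51 ± 0.18 in HFD and 15.51 ± 0.15 in control (SD, n = 4 per group). Single markers moved in opposite directions, with 4 of 10 positive. The groups of 2, Epcam and Cdh1, did not overlap, against 7.84% of all rows. Epcam differed by 0.68 ± 0.14 and Cdh1 by -0.43 ± 0.12 (SE, limma adjusted p = 0.20 and 0.28). Among the makers of the ligands, parietal cell markers stood beside the Shh values at 11.71 ± 0.16 in HFD and 11.997 ± 0.05 in control (SD, n = 4 per group; 2 of 10 positive; exact permutation p = 0.0286, adjusted p = 0.12; deposited difference 0.57). After quantile normalization this score differed by -0.20 (exact permutation p = 0.34). The groups did not separate for any single parietal marker (0 of 10). Hrh2 had the largest difference of the 10, at -1.38 ± 0.85 (SE; limma adjusted p = 0.60). Its level reached 15.12 in control 15-17-18, while control 16, 19 and 20 had 10.99, 12.17 and 12.14. No HFD library exceeded 11.84 for Hrh2. The score without Hrh2 was not tested. Surface pit cell markers stood beside Ihh at 15.12 ± 0.18 in HFD and 15.27 ± 0.20 in control (SD, n = 4 per group; exact permutation p = 0.34, adjusted p = 0.50). Of these 8 markers 2 were positive, and Muc5ac alone did not overlap between the groups, against 7.84% of all rows. Muc5ac was lower in HFD, with a difference of -1.61 ± 0.35 (SE, limma adjusted p = 0.20), and of -0.75 as deposited. Chief cell markers, of the cells that make pepsinogen, stood at 14.20 ± 0.18 in HFD and 13.24 ± 0.46 in control (SD, n = 4 per group; 8 of 8 positive; exact permutation p = 0.0286, adjusted p = 0.12). Markers of forestomach squamous epithelium, the lining of the non-glandular stomach, stood at 7.28 ± 0.38 in HFD and 5.67 ± 1.14 in control (SD, n = 4 per group; 7 of 8 positive; exact permutation p = 0.057, adjusted p = 0.19). Their scores overlapped at 6.90 to 7.81 in HFD and 4.66 to 6.96 in control, and their summed level ran from 11.43 to 12.74 in HFD and from 7.93 to 11.55 in control, with Lor at 0 in 1 library. The keratin gene Krt4 differed by 2.69 ± 0.96 (SE; limma adjusted p = 0.38), and by 3.43 as deposited, where it was called (limma adjusted p = 0.034). The part of these cells in the values of the 9 genes was not tested. Endothelial, leukocyte and nerve markers stood at 7.22, 4.33 and 4.87 in HFD and at 6.80, 3.92 and 4.49 in control. Estimated depth was 31.4 to 46.0 M reads in HFD and 16.4 to 63.2 M in control libraries.

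Across the 8 libraries 6 relations were computed between these genes and markers, and none passed on the scaled values. Shh and Atp4a, the proton pump subunit of parietal cells, had r = 0.02 (rho = 0.14; exact permutation p = 0.95 and 0.75, adjusted p = 0.95 and 0.75). Without HFD 23 and control 15-17-18 it was 0.38, and it was 0.96 within HFD and -0.42 within control. As deposited the pair had r = 0.87 (exact permutation p = 2.5e-04, adjusted p = 0.0015), a scale on which each library's common shift moves both genes. Ihh and the pit mucin gene Muc5ac had r = -0.35 (rho = -0.36; exact permutation p = 0.39 each, adjusted p = 0.69 and 0.58), and 0.87 without control 15-17-18 and 16, so the relation rests on those libraries. Within the groups it was -0.04 in HFD and -0.90 in control. Muc5ac itself did not overlap between the groups, at 15.80 to 16.19 in HFD and 16.71 to 18.54 in control.

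Gli1 was set against genes of the responding cells. With Ptch1 it had r = 0.59 (rho = 0.55; exact permutation p = 0.12 and 0.17, adjusted p = 0.69 and 0.39), which became 0.07 without control 15-17-18 and 19, and it was 0.94 within HFD and 0.84 within control. With Hhip it had r = -0.12 (rho = 0.21; exact permutation p = 0.78 and 0.62, adjusted p = 0.94 and 0.74), 0.50 without HFD 22 and control 15-17-18, and 0.83 within HFD and -0.76 within control. With Pdgfra, a receptor of stomach fibroblasts, Gli1 had r = 0.38 (rho = 0.52; exact permutation p = 0.36 and 0.20, adjusted p = 0.69 and 0.39), 0.35 without HFD 22 and control 19, and 0.79 within HFD and 0.30 within control. Ptch1 and Pdgfra had r = 0.30 (rho = 0.60; exact permutation p = 0.46 and 0.13, adjusted p = 0.69 and 0.39), -0.05 without HFD 22 and control 19, and 0.59 within HFD and 0.54 within control. Each within-group value rests on 4 libraries.

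The wider pathway was read from 4 lists of genes, and 0 of their genes were called over all rows. In the list of ligand release and reception (14 genes, all tested), 10 differences were positive, against 59.9% of all rows, and the median was 0.28. At an unadjusted limma p under 0.05, 1 gene was higher and 0 lower, a smaller share than the 10.5% of all rows. That gene was Gpc3, a glypican that competes for Hedgehog ligand, at 7.18 ± 0.55 in HFD and 5.97 ± 0.98 in control (SD, n = 4 per group), a difference of 1.22 ± 0.49 (SE; limma adjusted p = 0.43). Boc and Cdon, co-receptors that bind ligand with Ptch1, had differences of 0.52 ± 0.30 for Boc and -0.28 ± 0.15 for Cdon (SE), with limma adjusted p of 0.57 and 0.54, and Cdon was at 0.58 as deposited. Gpc3 and Boc, like Hhip, overlapped between the groups. Without control 15-17-18 and 19 the median of this list was 0.76, beside 0.18 over all rows. In that setting 4 genes were higher and 2 lower at an unadjusted limma p under 0.05. Without control 20 the list median was 0.0085, beside 0.07 over all rows, and 7 of the 14 differences were negative.

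Genes of signal transduction and Gli processing had the lowest median of the 4 lists, at -0.13 beside 0.12 over all rows, and a median of 0.02 beside 0.18 without control 15-17-18 and 19. Of 22 genes 13 were negative. At an unadjusted limma p under 0.05, 7 were lower and 0 higher. Over all 27401 rows 1122 were lower and 1762 higher, and the 2 directions together make 10.5%. The groups of 5, Grk2, Gsk3b and Csnk1a1 among them, did not overlap, against 7.84% of all rows. The median SD within groups was 0.24 in this list, beside 0.61 over all rows and 0.22 in the list of primary cilium genes. The part of this spread in the counts was not tested. Grk2, a kinase that phosphorylates Smo, averaged 11.11 ± 0.05 in HFD and 11.45 ± 0.12 in control (SD, n = 4 per group), a difference of -0.34 ± 0.10 (SE; limma adjusted p = 0.29). Gsk3b and Csnk1a1, kinases that mark Gli proteins for cutting, each differed by -0.35 ± 0.11 (SE), with limma adjusted p of 0.30 for Gsk3b and 0.33 for Csnk1a1. In Grk2, Gsk3b and Csnk1a1 all 4 HFD libraries lay below all 4 controls. These kinases act in many pathways besides Hedgehog. As deposited 0 of the 22 were lower and 1 was higher at that p, with differences of 0.52 for Grk2 and 0.51 for Gsk3b and Csnk1a1. Without limma's trend and robust options 2 were lower and 1 higher. After quantile normalization 4 were lower, 4 to 6 were lower with any 1 library left out, and without control 15-17-18 and 19 there were 6 lower and 2 higher.

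Genes of the primary cilium, the organelle in which Smo acts, were balanced. Of 25 genes 14 were positive, against 59.9% of all rows, and the median was 0.02. At an unadjusted limma p under 0.05, 3 were higher and 0 lower, against 10.5% of all rows, so this count lay near the background. The 3 were the intraflagellar transport genes Ift57, with a difference of 0.95 ± 0.35, Ift122, with 0.34 ± 0.12, and Ift20, with 0.32 ± 0.13 (SE), and their limma adjusted p was 0.39, 0.38 and 0.43. The groups did not overlap for Ift57, Ift20 and Ift80, against 7.84% of all rows. Ift80, named for that reason after its values were seen, differed by 0.30 ± 0.14 (SE; limma adjusted p = 0.49). Ift57 averaged 6.52 ± 0.29 in HFD and 5.57 ± 0.51 in control (SD, n = 4 per group).

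Genes known to respond to Gli proteins in other tissues had a median of 0.11 with all 8 libraries, close to the 0.12 of all rows. That median depended on the libraries used. Without control 15-17-18 and 19 it was 0.79, beside 0.18 over all rows. Without HFD 23 it was -0.013, beside 0.12. The counts that follow are from all 8 libraries. Of 24 genes 15 were positive, against 59.9% of all rows. At an unadjusted limma p under 0.05, 1 was higher and 1 lower, a smaller share than the 10.5% of all rows. The higher was Mycn, a proto-oncogene of proliferating progenitors, at 6.70 ± 0.36 in HFD and 5.55 ± 0.71 in control (SD, n = 4 per group), a difference of 1.15 ± 0.40 (SE; limma adjusted p = 0.36) with groups that did not overlap, as for 7.84% of all rows. The lower was Bmp2, a secreted signal of the TGF-beta family, at 8.93 ± 0.13 in HFD and 9.68 ± 0.51 in control (SD, n = 4 per group), a difference of -0.76 ± 0.23 (SE; limma adjusted p = 0.30) that was 0.10 as deposited. Cdk6, a kinase of the G1 phase, was at -0.35 ± 0.18 (SE; limma adjusted p = 0.53).

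Rows most like each gene over the 8 libraries were named by Pearson's r on the scaled values, as a description. Shh was most like Xlr4d-ps (r = 0.98), whose mean level was 0.91 in HFD, near the floor, and 3.57 in control. Ihh was most like Cnot11 and Flot1 (r = 0.98 each). Ptch1 was most like Mir320 and Lrch1 (r = 0.97 each), Sufu most like Celsr2 and Adgra2 (r = 0.95 each), and Hhip most like Cenpj (r = 0.97) and Kcnd3os (r = 0.95). Gli1 was most like Rnf182 (r = 0.99) and D430041D05Rik (r = 0.97), Gli3 was close to D430041D05Rik as well (r = 0.98), and Gli2 was most like 1600020E01Rik and Gfra1 (r = 0.98 each). For Smo the most similar rows were the vomeronasal receptor genes Vmn1r51 (r = 0.97) and Vmn2r129 (r = 0.95), whose mean levels of about 1 lie near the floor. With 27401 rows and 8 libraries that share depth and composition, values of this size carry no p.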

How the data were processed

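Total RNA of sorted cells was freed of ribosomal RNA and sequenced from Ion Total RNA-Seq libraries, per the labels' protocols. The authors' deposited values are log2 values floored at 0, whose antilogs sum to 36.9 M in every library. The submitters' processing notes name mm10 and bedtools 2.17.0, without their role; aligner, annotation and normalization are not given in the sources consulted.

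Values were taken to the linear scale, divided by the median ratio over 11115 rows above 30 in all 8 libraries, and tested as log2(value + 1) with limma 3.58.1 (R 4.3.3; trend and robust options, group as the only term). Only rows reaching a value of 1 in 4 or more libraries entered the test, with Benjamini-Hochberg adjustment and a threshold of 0.05. Fold changes of low genes are understated by the pseudocount. Single values were compared by exact two-sided permutation over 70 divisions. Reads behind a value were estimated from the gap between the 2 most frequent positive values in each library and carry no interval. Symbols and coordinates are from RefSeq GRCm38.p6 and exon lengths from GENCODE M21. The 9 genes, the lists and the relations were chosen with earlier results of these data known. Named genes are the 9, the 3 with the smallest p in each pathway list, and the 2 rows most like each of the 9, of which 1 for Shh and 1 for Gli3 are not reported here. Alternatives were the deposited scale, quantile normalization, a pseudocount of 10, no filter, a filter in all 8 libraries, no trend or robust option, array weights, each library left out, and, added after seeing the data, control 15-17-18 and 19 left out together and ratios within a library.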

Additional observations from a re-analysis of the deposited data

How the results depend on the processing

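No paired analysis was possible because HFD and control libraries have no replicate number in common. The count of 0 called among the 9 genes held under all 17 settings. The count of 3 rows called became 16 as deposited, 21 with array weights, 0 by limma without control 15-17-18 and 19 (an alternative chosen after seeing the data, with 2966 rows at an unadjusted p under 0.05), and 2 to 5 with 1 library left out, 5 being without control 16. The sign of a difference turned in these cases. As deposited, Shh was at 0.38, Ihh 0.83, Ptch1 0.64, Cdon 0.58, Grk2 0.52, Gsk3b 0.51, Csnk1a1 0.51, Bmp2 0.10 and Cdk6 0.50. After quantile normalization Ihh was at 0.019, Smo -0.013, Gli3 -0.21 and Sufu -0.068, and with a pseudocount of 10 Gli3 was at -0.016. With 1 library left out, ranges that crossed 0 were -0.087 to 0.031 for Ihh, -0.030 to 0.11 for Smo, -0.084 to 0.77 for Gli1, -0.018 to 1.79 for Gli2, -0.49 to 0.85 for Gli3 and -0.062 to 0.12 for Sufu. The cause was not tested, other than that the median row stands at 0.90 as deposited and at 0.12 after scaling. Marker scores turned as deposited for gastric epithelium (0.85), parietal (0.57), surface pit (0.70), neck (0.65) and tuft cells (0.36), and after quantile normalization for gastric epithelium (0.35), pit (0.22) and neck cells (0.014). With 1 library left out the score difference ran from -0.086 to 0.041 for gastric epithelium markers and from -0.51 to 0.021 for mucous neck cell markers. Relations turned for Ihh with Muc5ac (0.32) and Gli1 with Hhip (0.72) as deposited, and for Gli1 with Pdgfra (-0.26) after quantile normalization. Of the alternative values of the 9 genes, 123 kept their sign and side of the threshold and 21 changed sign. Depth limits Hhip and the Gli genes most, with as few as about 6.46 reads for Gli2 in control 19.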
